A study of Mus musculus with 22 samples.

Results

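The replication-dependent histone genes were examined in RNA-seq libraries of fully grown mouse oocytes at the germinal vesicle (GV) stage. Members were the genes of the deposited table whose GENCODE mouse symbol begins with Hist1h, Hist2h, Hist3h or Hist4h and does not carry the pseudogene ending -ps. This gave 69 of 52636 genes, with 6 of class H1, 20 of H2A, 18 of H2B, 12 of H3 and 13 of H4. By their symbols, 56 were of cluster Hist1 (chromosome 13), 10 of Hist2 (chromosome 3), 2 of Hist3 (chromosome 11) and 1 of Hist4 (chromosome 6). GENCODE M21 annotates 67 members as protein-coding and 2, Hist1h2aj and Hist1h2al, as pseudogenes. Hist1h2al, at chr13:51202727-51203065, lies far from the other Hist1 genes.

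All libraries came from C57BL/6 females and formed 2 sequencing runs that were analysed apart. The single-end run compared alleles of Dicer, the nuclease that cuts long double-stranded RNA into siRNAs. It held 3 libraries of Dicer-WT/WT oocytes (WT), 4 of Dicer-ΔMT/ΔMT, 3 of Dicer-SOM/SOM and a lone Dicer-ΔMT/WT library, with no ages in the labels. ΔMT lacks the MTC retrotransposon promoter that drives the short oocyte isoform of Dicer, with some expression of an isoform from another promoter left over. SOM carries a tagged full-length Dicer from a single embryonic stem cell clone in place of an allele that can make the oocyte isoform. The paired-end run combined Dicer-SOM with Mili-DAH, a catalytically dead form of the piRNA nuclease MILI. It held Mili-DAH/WT, Dicer-SOM/WT oocytes (the control, n = 4, from females of 10, 17, 36 and 38 weeks), Mili-DAH/WT, Dicer-SOM/SOM (the RNAi mutant, n = 2, 13 and 17 weeks), Mili-DAH/DAH, Dicer-SOM/SOM (the double mutant, n = 4, 11, 11, 35 and 40 weeks) and a lone Mili-DAH/DAH, Dicer-SOM/WT library of 16 weeks (the Mili mutant). All paired-end groups, the control included, carried at least 1 mutant allele of both genes. Replicate names ending in o are the older females, and nothing in the labels says whether replicates came from separate mice, so p-values measure the spread between these libraries.

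Core histones H2A, H2B, H3 and H4 form the protein spool of the nucleosome, and H1 binds the linker DNA between nucleosomes. Replication-dependent histone genes have no introns in the usual case, and their mRNAs end in a conserved stem-loop in place of a poly(A) tail. The stem-loop is bound by SLBP and cut by a complex that contains the U7 small nuclear RNP. GV oocytes are arrested in meiosis, long after their last S phase, and store histone mRNA and protein for the divisions after fertilization.

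The stem-loops of the genes on which the results below turn are shown because they define the mRNA class. A search of GENCODE M21 transcripts for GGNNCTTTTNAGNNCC on the transcript strand, with the 6 outer bases of each side able to pair, found the element in 44 of the 69 members. It was found in 55 of all 55450 genes, or 0.0992%, the 44 members included. All 44 lay in an annotated untranslated region downstream of the coding part. The 25 members without a match included 13 whose annotated transcript stops at the stop codon and 2 with no annotated stop codon, so that no downstream sequence could be searched. Capitals mark the 16 bases of the element in the following, written 5′ to 3′ from GENCODE M21 (GRCm38).
Hist1h1e: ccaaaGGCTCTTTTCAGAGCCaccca
Hist1h1c: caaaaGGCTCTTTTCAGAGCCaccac
Hist1h1d: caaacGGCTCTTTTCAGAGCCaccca
Hist1h4d: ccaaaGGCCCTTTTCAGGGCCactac
Hist2h4: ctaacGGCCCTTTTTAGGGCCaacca
Hist1h3a: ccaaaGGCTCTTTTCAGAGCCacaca

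The element of Hist1h1e lay at chr13:23621782-23621797 on the minus strand, that of Hist1h1c at chr13:23739512-23739527 on the plus strand and that of Hist1h4d at chr13:23581950-23581965 on the plus strand. The commonest of the 6 forms found, shown here in Hist1h1e, Hist1h1c, Hist1h1d and Hist1h3a, was present in 26 members, whereas the form of Hist1h4d was present in 7. In 22 of the 44 members the annotated transcript ran on for more than 100 bases past the element. These included Hist1h1e with 1153 further bases, Hist1h1c with 840, Hist1h1d with 4884, Hist1h4d with 770 and Hist2h4 with 1257. In Hist1h3a 37 bases followed it.

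RefSeq promoter windows (GRCm38.p6, 250 bases before to 50 after the start) could be matched for 62 members, including all 6 H1 genes. CCAAT on either strand was present in 53 of them (85.5%) against 37.4% of all 32851 windows, in all members matched of the other classes but in 3 of 12 H4 genes, and TATAAA in 35 (56.5%) against 13.6%. AAACACA, the letters of the H1 box, was present in 9 (14.5%) against 7.18%, and 5 of these 9 were H1 genes. The 250 bases upstream of Hist1h1e (chr13:23622559-23622808, minus strand) and Hist1h1c (chr13:23738557-23738806, plus strand), the H1 genes called in each comparison of a Dicer mutant with its control, are printed with these motifs in capitals. No printed match overlapped another.
Hist1h1e: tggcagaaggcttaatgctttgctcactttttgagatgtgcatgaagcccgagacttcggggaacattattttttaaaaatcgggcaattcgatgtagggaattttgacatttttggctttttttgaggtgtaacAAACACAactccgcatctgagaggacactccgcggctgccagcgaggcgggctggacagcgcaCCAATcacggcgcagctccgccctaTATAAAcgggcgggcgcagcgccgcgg
Hist1h1c: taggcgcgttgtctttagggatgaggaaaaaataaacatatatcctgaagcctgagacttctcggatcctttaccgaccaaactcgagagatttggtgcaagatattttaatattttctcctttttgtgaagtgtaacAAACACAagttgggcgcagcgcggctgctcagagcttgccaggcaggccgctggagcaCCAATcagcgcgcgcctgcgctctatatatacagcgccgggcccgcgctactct

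The table held estimated counts, because the authors divided multimapping and multi-gene reads into fractions. Of the member values, 95.2% were not whole numbers, and no member was whole in all 22 libraries. Reads from near-identical copies were therefore shared out among genes. Each 50-base window of a member's transcript was looked up in the transcripts of all other genes, and the median share found elsewhere was 55% over the members. In the H1 genes the median was 1.12%, with 32% for Hist1h1e as the highest, whereas it was 73.2% in H2A, 46.9% in H2B, 62% in H3 and 39.5% in H4. With 75-base windows, the read length of the paired-end run, the medians were 0.735%, 71.5%, 42.1%, 59% and 24.6%. Values of single H2A, H2B, H3 and H4 genes with high shares are uncertain for this reason, and the counting did not use the strand, so a gene and an overlapping antisense gene cannot be told apart.

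**Figure D1:**
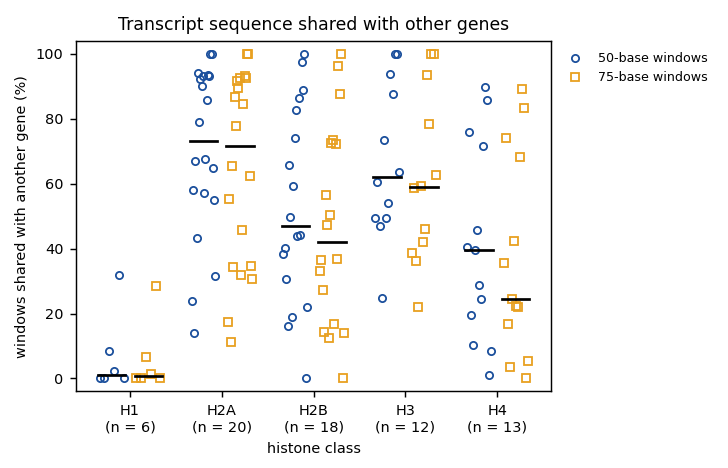
Percent of the 50-base (circles) and 75-base (squares) windows of each member's transcript that also occur in a transcript of another gene, by histone class; bars are class medians. The H1 genes lie between 0 and 32%, and H2A reaches 100%.

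Libraries held 6468380 to 90713013 counts in the single-end run and 22928936 to 43540806 in the paired-end run. Expression is given as CPM, the count of a gene scaled to its library total, with TMM adjustment of that total within a run. A count of 3 corresponded to 0.0331 to 0.464 CPM in single-end and 0.0689 to 0.131 CPM in paired-end libraries. Dicer1 followed the labels, with 997 to 1048 CPM in WT, 428 to 533 in ΔMT/ΔMT and 41.6 to 54.4 in SOM/SOM, and with 502 to 763 in the control against 53.2 to 62.1 in the RNAi and double mutants. The libraries differed in Gm42418, a gene model that collects ribosomal RNA reads. It reached 12720 and 17280 CPM in SOM/SOM replicates 1 and 3 against 4760 to 7569 in the other single-end libraries, and fell into a set of 294 to 557 CPM and a set of 4086 to 5503 CPM in the paired-end run, both RNAi mutants being in the second. SOM/SOM replicate 3 was also the shallowest library. Their part in the results was not tested beyond the values given beside each result.

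In WT oocytes the histone mRNAs were dominated by a few genes. Per kilobase of annotated exon the leading member was Hist1h2aa, the H2A partner of the testis type H2B, with a mean of 182 CPM per kb. It was followed by Hist1h1a (63.9), Hist1h2bc (24.7), Hist1h2ba (20.2), the testis type H2B that is also known from oocytes, and Hist2h3c2 (17.8). In the paired-end control the same 4 genes led, in the order Hist1h2aa (50.5 CPM per kb), Hist1h2bc (32.6), Hist1h1a (30.5) and Hist1h2ba (12.8). The 5 members with the highest CPM held 49.6% of the summed member CPM of 354 in WT and 58.2% of 159 in the control. In WT 5 members were above 10 CPM and 9 under 1 CPM, against 3 and 41 in the control. Hist1h1t, the testis H1, was at 0.114 to 0.370 CPM in WT and at 0 to 0.305 CPM in the control.

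Hist1h1e, the gene of linker histone H1.4, showed the largest rise of all members in each comparison of a Dicer mutant with its control. It was at 5.46, 4.22 and 3.599 CPM in the 3 WT libraries, at 14.7, 13.5, 19.4 and 11.9 CPM in ΔMT/ΔMT and at 25.1, 35.2 and 86.0 CPM in SOM/SOM. The 3 genotypes did not overlap, with SOM/SOM highest and WT lowest. In the paired-end series Hist1h1e was at 2.53, 2.53, 2.03 and 1.67 CPM in control oocytes (replicates 1o, 2o, 2 and 3), at 24.7 and 21.0 CPM in the RNAi mutant and at 20.9, 20.8, 17.4 and 28.0 CPM in the double mutant. Both mutant groups lay far above the control and overlapped each other. The lone Mili-DAH/DAH, Dicer-SOM/WT library held 1.09 CPM, below the control range, and the lone ΔMT/WT library 2.05 CPM, below the WT range.

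The fitted log2 fold change of Hist1h1e was 1.74 ± 0.37 (SE) for ΔMT/ΔMT against WT (adjusted p = 0.0102, edgeR quasi-likelihood test) and 3.42 ± 0.41 for SOM/SOM against WT (adjusted p = 0.000137). It was 3.37 ± 0.23 for the RNAi mutant (adjusted p = 4.126e-07) and 3.30 ± 0.21 for the double mutant (adjusted p = 1.282e-07) against the paired-end control. SOM/SOM exceeded ΔMT/ΔMT by 1.68 ± 0.35 (adjusted p = 0.0162). Against the controls these calls were kept under all 16, 15, 17 and 19 alternative settings, whereas the difference between SOM/SOM and ΔMT/ΔMT was kept under 13 of 16. SOM/SOM replicate 3 was far above the others, and without it the change from WT was 2.77 ± 0.24 (adjusted p = 2.918e-05). Hist1h1e (ENSMUSG00000051627.3, chr13:23620629-23622558, minus strand) shares 395 exonic bases on the same strand with Hist1h2be and the pseudogene Gm11398. Hist1h2be did not pass the test in any comparison (log2 0.21 ± 0.18 in SOM/SOM against WT), and Gm11398 stayed at or below 0.288 CPM.

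The share of Hist1h1e in the summed H1 CPM was 5.61 to 9.80% in WT, 16.4 to 19.6% in ΔMT/ΔMT and 26.6 to 41.1% in SOM/SOM. In the paired-end run it was 5.46 to 11.2% in the control, 22.5 and 28.3% in the RNAi mutant and 22.8 to 30.4% in the double mutant.

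**Figure D2:**
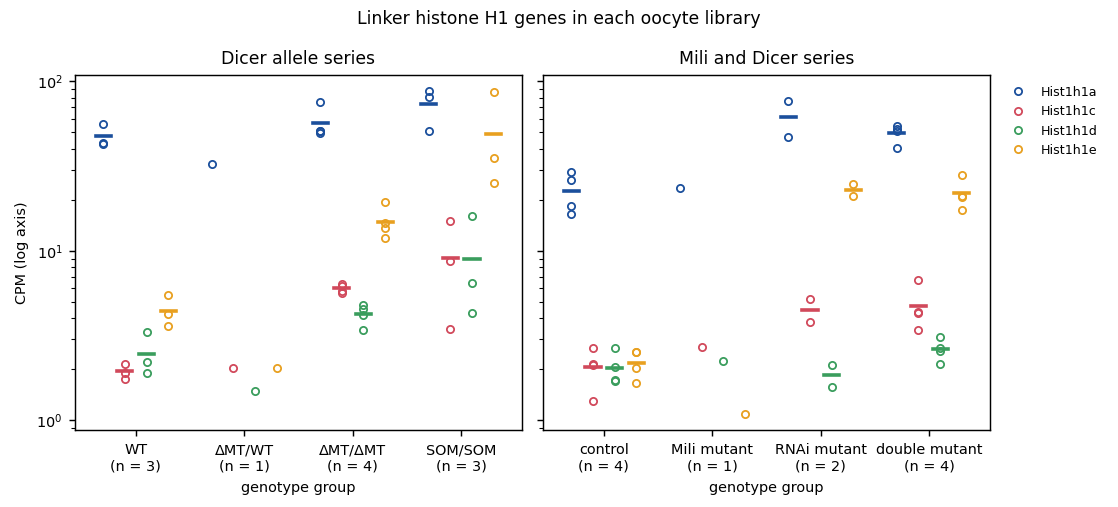
CPM (log axis) of Hist1h1a, Hist1h1c, Hist1h1d and Hist1h1e in each library of the single-end (left) and paired-end (right) run, by genotype group; circles are libraries and bars are group means. Hist1h1e lies at 3.599 to 5.46 CPM in WT and 25.1 to 86.0 CPM in SOM/SOM, and Hist1h1a is the highest H1 gene in each library, at 87.9 CPM in SOM/SOM replicate 3 where Hist1h1e is at 86.0.

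Hist1h1c, which encodes H1.2, was at 2.16, 1.76 and 1.91 CPM in WT, at 6.22, 5.77, 6.38 and 5.67 CPM in ΔMT/ΔMT and at 3.48, 8.67 and 14.96 CPM in SOM/SOM. Both mutant groups lay above WT, and the ΔMT/ΔMT libraries were close to one another whereas SOM/SOM was spread. It rose by 1.63 ± 0.36 in ΔMT/ΔMT (adjusted p = 0.0118, edgeR) and by 2.13 ± 0.39 in SOM/SOM (adjusted p = 0.00221), the first of which missed the threshold without WT replicate 2 (adjusted p = 0.0527). It rose in the paired-end run by 1.12 ± 0.32 in the RNAi mutant (adjusted p = 0.0401) and by 1.19 ± 0.27 in the double mutant (adjusted p = 0.00653), from 1.30 to 2.66 CPM in the control to 3.41 to 6.70 CPM over both mutants. The RNAi mutant call was lost under 9 of 17 alternatives, among them the omission of either RNAi mutant library or of control replicate 1o, 2o or 3 (adjusted p up to 0.327). Hist1h1d, which encodes H1.3, rose by 1.74 ± 0.41 in SOM/SOM (adjusted p = 0.00891), or 1.12 ± 0.26 without replicate 3 (adjusted p = 0.0104), and was at log2 -0.15 ± 0.30 in the RNAi mutant and 0.36 ± 0.24 in the double mutant (adjusted p = 0.838 and 0.330).

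Hist1h1a, encoding H1.1 and the most abundant H1 mRNA of these oocytes, was at 26.3, 16.4, 29.3 and 18.3 CPM in the control, at 76.8 and 47.0 CPM in the RNAi mutant and at 51.1, 40.2, 52.3 and 54.8 CPM in the double mutant. No mutant library reached down to the control range. The rises were 1.45 ± 0.25 (adjusted p = 0.00144) and 1.13 ± 0.21 (adjusted p = 0.00153), and the first was 1.05 without RNAi mutant replicate 1 (adjusted p = 0.0577). In the single-end run Hist1h1a was at 42.7 to 56.1 CPM in WT, 49.6 to 75.2 in ΔMT/ΔMT and 50.9 to 87.9 in SOM/SOM, with overlap, and the SOM/SOM change of 0.63 ± 0.22 did not pass (adjusted p = 0.0537). The summed H1 CPM was 51.2 to 64.2 in WT, 72.3 to 107 in ΔMT/ΔMT and 84.8 to 210 in SOM/SOM, and 22.6 to 37.1 in the control against 68.4 to 110 in the RNAi and double mutants.

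In ΔMT/ΔMT oocytes against WT, 3 of 69 tested members were called higher, against 8.06% of all 23151 genes, and 0 lower, against 7.3% (also 0 by DESeq2 and 0 at an unadjusted p under 0.05). Besides Hist1h1e and Hist1h1c this was Hist1h2bc, with 26.8, 31.8 and 27.2 CPM in WT and 40.9, 43.4, 37.9 and 36.9 CPM in ΔMT/ΔMT (log2 0.47 ± 0.13, adjusted p = 0.0312), a call lost without WT replicate 1 or 3 or ΔMT/ΔMT replicate 1 or 2 (adjusted p up to 0.119). Fitted changes were above 0 in 65 of 69 members. Many members share reads and the share of all genes above 0 was not computed, so these are not 65 separate rises. The member median was 0.37, against 0.01 over all genes. When ΔMT/ΔMT and WT alone entered the fit, 22 members were called higher.

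In SOM/SOM oocytes against WT, 24 members were called higher, against 14.5% of all genes, and 1 was called lower, against 14.2%. The rises comprised 10 of 13 H4 genes, 9 of 20 H2A genes, 3 of 6 H1 genes and 1 gene each of H2B and H3. The member called lower was Hist3h2ba, which went from 1.92, 1.64 and 3.11 CPM in WT to 0.716, 1.36 and 1.30 CPM. The median fitted change of the members was 0.75 and that of all genes 0.02. The count of 25 moved with single libraries and settings. It was 7, 7 and 8 without WT replicate 1, 2 or 3, with member medians of 0.78, 0.65 and 0.80. Without SOM/SOM replicates 1, 2 and 3 in turn it was 26, 36 and 16, with member medians of 0.91, 0.98 and 0.36. It was 35 by DESeq2, 33 with a filter at 1 CPM, 32 with library totals and 4 with the Gm42418 level as a covariate.

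**Figure D3:**
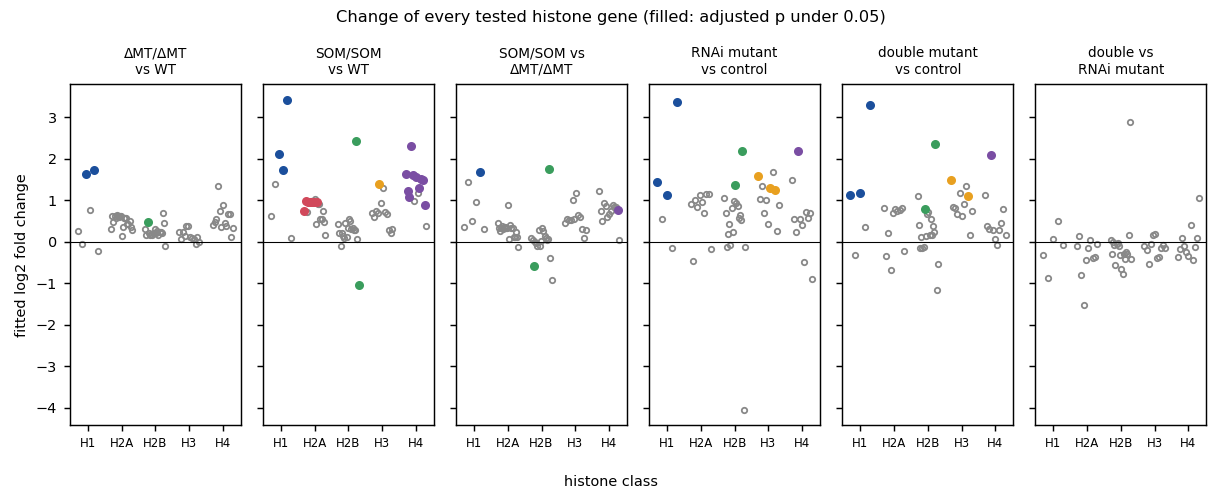
Fitted log2 fold change of each tested member in the 6 comparisons, by histone class; filled points passed an adjusted p of 0.05 in the edgeR test and open grey points did not. SOM/SOM against WT has 25 filled points, 10 of them H4 genes, and the double mutant against the RNAi mutant has 0.

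SOM/SOM differed from ΔMT/ΔMT in 4 members. Hist1h1e, Hist2h2bb and Hist2h4 were called higher (3 members, against 4.03% of all genes) and Hist1h2bc lower (1 member, against 3.32%). Hist1h2bc was at 21.3, 30.4 and 28.3 CPM in SOM/SOM, below each ΔMT/ΔMT library and overlapping WT. Hist2h4, an H4 gene of the chromosome 3 cluster, was at 9.30, 8.45 and 8.34 CPM in SOM/SOM against 4.55 to 5.59 in ΔMT/ΔMT and 3.44 to 6.17 in WT. The count was 2 and 1 without ΔMT/ΔMT replicates 1 and 2, 7 without SOM/SOM replicate 2, and 0 with the Gm42418 covariate.

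In the paired-end run 55 of 69 members passed the filter on low counts. The 14 that did not were 10 H2A genes, Hist1h1t, Hist1h3i, Hist1h4m and Hist1h4n, and none of them exceeded 0.389 CPM in any library. Of the 55, 9 were called higher in the RNAi mutant against the control, compared with 7.07% of all 20989 genes, and 0 lower, compared with 3.64%. In the double mutant 8 were called higher, compared with 12.3%, and 0 lower, compared with 8.84%. In both comparisons 0 members were also lower by DESeq2 and at an unadjusted p under 0.05. Hist1h1e, Hist1h1c, Hist1h1a, Hist2h2bb, Hist1h4d, Hist1h3a and Hist2h3b were called in both, Hist1h2bl and Hist1h3g in the RNAi mutant, and Hist1h2bh in the double mutant. These comparisons share the control libraries. Median fitted changes of the members were 0.71 and 0.55, against -0.02 and -0.00 for all genes. The count of 9 was 1 without RNAi mutant replicate 1 and 5 without control replicate 2o, and the count of 8 was 13 without control replicate 2. With females under 30 weeks alone, 3 members were called in each comparison.

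The double mutant did not differ from the RNAi mutant in any member at adjusted p < 0.05, with 0 higher and 0 lower by edgeR, 0 by DESeq2 and 0 at an unadjusted p under 0.05. Over all genes 0.31% were called higher and 0.00476% lower. For Hist1h1e the difference was -0.07 ± 0.22 and for Hist1h1a -0.32 ± 0.25. The member median was -0.15.

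SOM/SOM against WT and the RNAi mutant against the control share no library and set homozygous Dicer-SOM against a genotype with a wild-type Dicer allele. Among the 55 members tested in both runs, 14 were called higher in the first and 9 in the second, and 4 were called higher in both, which is 28.6% of the 14 and 44.4% of the 9. These were Hist1h1c, Hist1h1e, Hist2h2bb and Hist1h4d, and the reads of Hist2h2bb cannot be told apart from those of genes it overlaps. Fitted changes were above 0 in both runs for 46 of the 55. Of all genes tested in each run, 14.5% and 7.07% were called higher. The overlap over all genes was not computed, so these counts do not show whether the overlap is particular to the members.

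Of 13 H4 genes 10 were called higher in SOM/SOM, with much sequence in common among them (89.8, 85.6 and 75.9% of the 50-base windows of Hist1h4m, Hist1h4n and Hist1h4b were found in other genes), so these calls are not independent observations. Hist1h4d was at 5.29, 5.68 and 6.01 CPM in WT, 11.1, 17.0, 15.9 and 13.9 CPM in ΔMT/ΔMT and 9.86, 14.4 and 65.0 CPM in SOM/SOM. It lay above WT in each mutant library, and SOM/SOM replicate 3 was far above the rest. The SOM/SOM change was 2.30 ± 0.57 (adjusted p = 0.0113, edgeR) and 1.11 ± 0.20 without replicate 3 (adjusted p = 0.00302), and the ΔMT/ΔMT change of 1.35 ± 0.52 did not pass (adjusted p = 0.105). In the paired-end run Hist1h4d was at 1.77, 1.20, 4.19 and 0.854 CPM in the control, 12.9 and 5.73 CPM in the RNAi mutant and 7.87, 8.85, 6.57 and 11.2 CPM in the double mutant. The highest control, replicate 2, stayed below each mutant library. The changes were 2.19 ± 0.48 (adjusted p = 0.00851) and 2.09 ± 0.42 (adjusted p = 0.00272). Without RNAi mutant replicate 1 the first was 1.48 and missed the threshold (adjusted p = 0.196).

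Hist1h4a, Hist1h4f and Hist1h4i rose by 1.64 ± 0.45, 1.62 ± 0.47 and 1.57 ± 0.46 in SOM/SOM (adjusted p = 0.0193, 0.0255 and 0.0266). Without SOM/SOM replicate 3 the changes were 1.14 ± 0.38, 0.82 ± 0.20 and 0.75 ± 0.17 (adjusted p = 0.0531, 0.0149 and 0.00981). The Hist1h4a call was also lost without WT replicate 1 or 2 or SOM/SOM replicate 1, and those of Hist1h4f and Hist1h4i without any one WT replicate. None of the 3 passed in the paired-end run. Hist1h4c, the H4 gene with the highest CPM in WT, was at 5.95, 5.87 and 6.68 CPM in WT and 11.1, 6.86 and 23.5 CPM in SOM/SOM, and its rise of 1.08 ± 0.36 (adjusted p = 0.0447) was 0.55 ± 0.24 without replicate 3 (adjusted p = 0.129). The summed H4 CPM was 25.2 to 31.7 in WT, 38.5 to 51.5 in ΔMT/ΔMT and 52.1, 44.4 and 158 in SOM/SOM. The mean ratio of SOM/SOM to WT was 3.03, and 1.73 without replicate 3.

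Hist2h2bb, an H2B gene, was at 0.414, 0.205 and 0.391 CPM in WT, 0.436 to 0.634 in ΔMT/ΔMT and 2.68, 1.68 and 0.719 CPM in SOM/SOM. All SOM/SOM libraries were above the other groups, and here replicate 3 was the lowest of its group. The control held 0.233 to 0.394 CPM, the RNAi mutant 1.73 and 1.36 CPM and the double mutant 2.37, 0.813, 1.41 and 2.30 CPM. The changes were 2.43 ± 0.41 in SOM/SOM (adjusted p = 0.00121, edgeR), 2.19 ± 0.45 in the RNAi mutant (adjusted p = 0.00590, and 0.0671 without its replicate 1) and 2.35 ± 0.40 in the double mutant (adjusted p = 0.000740). In ΔMT/ΔMT it was 0.69 ± 0.38 (adjusted p = 0.262). The 381 bases of Hist2h2bb (chr3:96269752-96270132, plus strand) lie wholly within exons of the lincRNA Gm42743 on the same strand and of the antisense RNA Gm20628 on the other. Gm20628 moved with it, at 7.59 to 9.07 CPM in WT, 10.1 to 11.9 in ΔMT/ΔMT and 18.0 to 32.2 in SOM/SOM (log2 1.58 ± 0.18, adjusted p = 9.964e-05), and at 3.69 to 6.33 CPM in the control and 7.98 to 26.3 in both mutants. Gm42743 was at 1.597, 0.205 and 1.287 CPM in WT and 2.39, 1.465 and 0.576 CPM in SOM/SOM, with overlap. Reads of Hist2h2bb, of Gm20628 and Gm42743 and of Hist2h3b, the H3 gene that Gm20628 also overlaps, cannot be told apart.

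Hist1h2bc, the H2B gene with the highest CPM, was at 38.5, 29.9, 44.0 and 38.4 CPM in the control, 37.5 and 31.5 in the RNAi mutant and 32.1 to 38.8 in the double mutant. The groups overlapped (log2 -0.13 ± 0.18 and -0.14 ± 0.15, adjusted p = 0.735 and 0.565). The testis type Hist1h2ba was at 6.58 to 8.34 CPM in WT, 7.69 to 11.7 in ΔMT/ΔMT and 8.61 to 12.8 in SOM/SOM, and its SOM/SOM change of 0.42 ± 0.19 did not pass (adjusted p = 0.121). In the paired-end run it was at 2.93, 2.80, 12.2 and 1.75 CPM in the control and 6.15 to 21.4 CPM in the double mutant, with control replicate 2 inside the mutant range (log2 1.11 ± 0.55, adjusted p = 0.178). Ratios of summed H2B CPM to the control group were 1.23 in ΔMT/ΔMT, 1.19 in SOM/SOM, 1.21 in the RNAi mutant and 1.14 in the double mutant.

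Hist2h2be, which shares none of its windows with another gene, had the lowest fitted value, at -4.05 ± 1.89 in the RNAi mutant (adjusted p = 0.214). It was at 0.320, 2.13, 0.0555 and 0.116 CPM in the control and 0.0865 and 0 in the RNAi mutant, so the value rested on control replicate 2o and on counts of 2 and 0 in the RNAi mutant.

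Among H2A genes, Hist1h2aa was at 78.6, 57.4 and 76.3 CPM in WT, 79.8 to 95.2 in ΔMT/ΔMT and 79.0, 104.1 and 178 CPM in SOM/SOM. The SOM/SOM libraries were above WT, the lowest by less than 1 CPM, and the change was 0.75 ± 0.24 (adjusted p = 0.0370, edgeR). It was 0.38 ± 0.15 without SOM/SOM replicate 3 (adjusted p = 0.0954), and the call was also lost when any WT replicate was left out. Across the paired-end libraries Hist1h2aa was at 15.3, 13.7, 36.6 and 13.2 CPM in the control, 46.0 and 28.3 in the RNAi mutant and 25.3, 30.2, 30.4 and 52.5 in the double mutant, and control replicate 2 lay within the mutant range (0.91 ± 0.39 and 0.81 ± 0.33, adjusted p = 0.173 and 0.102). The other 8 H2A genes called in SOM/SOM were Hist1h2ab, Hist1h2ad, Hist1h2ae, Hist1h2af, Hist1h2ah, Hist1h2ai, Hist1h2aj and Hist1h2an, each with 43.2 to 94% of its 50-base windows found elsewhere, so they are not independent observations. Of these 8, Hist1h2aj is annotated as a pseudogene. None of the 8 passed the filter in the paired-end run.

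Of 12 tested H3 genes 1 was called higher in SOM/SOM (Hist1h3e), and of 11 in the paired-end run 3 were in the RNAi mutant and 2 in the double mutant, against 14.5, 7.07 and 12.3% of all genes. Both paired-end counts include Hist2h3b, whose reads cannot be told apart from those of Gm20628. The Hist1h3e call was lost without SOM/SOM replicate 3 (0.98 ± 0.33, adjusted p = 0.0553) and without WT replicate 1 or 2 or SOM/SOM replicate 1. Hist1h3a was at 0.418, 0.400, 0.749 and 0.466 CPM in the control, 1.77 and 1.33 CPM in the RNAi mutant and 1.40, 1.22, 1.61 and 1.52 CPM in the double mutant. The mutants lay above the control without overlap, by 1.59 ± 0.37 (adjusted p = 0.0124) and 1.49 ± 0.32 (adjusted p = 0.00403), the first of which missed the threshold without RNAi mutant replicate 1 or 2 (adjusted p = 0.156 and 0.0517). In the single-end run the same gene was at 2.001 to 2.29 CPM in WT and 2.52, 2.57 and 6.76 CPM in SOM/SOM (0.70 ± 0.33, adjusted p = 0.140). Hist2h3c2 and Hist2h3c1, the H3 genes with the highest CPM in WT, did not pass in any comparison.

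**Figure D4:**
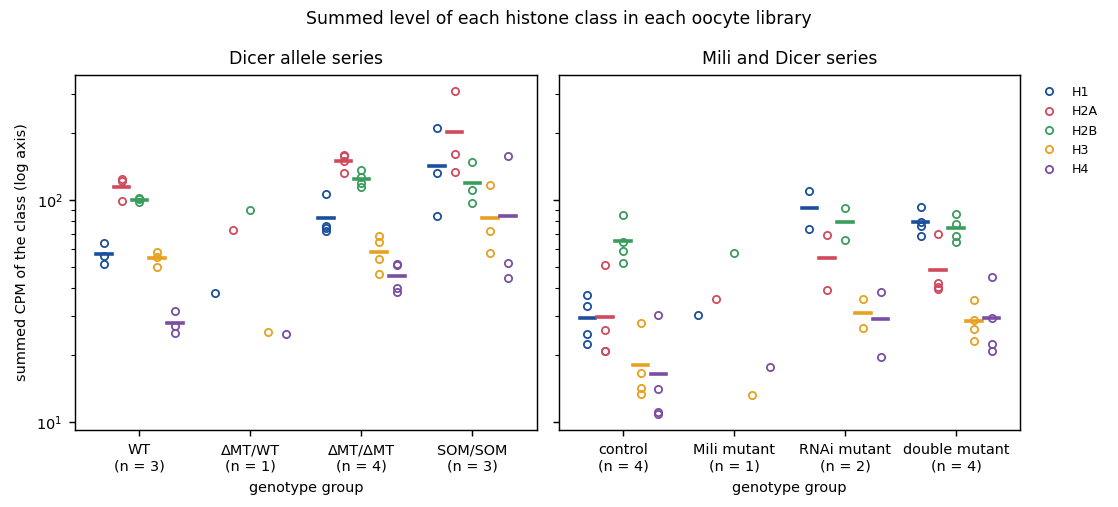
Summed CPM (log axis) of the members of each histone class in each library of the single-end (left) and paired-end (right) run; circles are libraries and bars are group means. The H1 sum is 22.6 to 37.1 in the control and 68.4 to 110 in the RNAi and double mutants, whereas the H2B sums of the paired-end groups overlap.

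Members called in SOM/SOM were found with each kind of transcript end. Of 22 members whose annotation runs over 100 bases past the stem-loop, 9 were called higher and 1 lower. Of 22 whose annotation ends within 100 bases of it 6 were called higher, and of 25 without a match 9 were, against 14.5% of all genes called higher. The medians were 0.80, 0.73 and 0.75. In the double mutant 4 of 20, 1 of 17 and 3 of 18 tested members of these sets were called higher, against 12.3% of all genes, with medians of 0.34, 0.41 and 0.71.

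The genes that act on histone mRNA were followed as a list of 22, all of them tested. In order of the 6 comparisons (ΔMT/ΔMT, SOM/SOM, SOM/SOM against ΔMT/ΔMT, RNAi mutant, double mutant, double against RNAi mutant), 3, 5, 2, 1, 3 and 0 were called higher, against 8.06, 14.5, 4.03, 7.07, 12.3 and 0.31% of all genes. Called lower were 2, 5, 0, 1, 2 and 0, against 7.3, 14.2, 3.32, 3.64, 8.84 and 0.00476%, and the list medians lay between -0.15 and 0.07. Zfp473, the mouse gene of ZFP100, which joins the SLBP-bound stem-loop to the U7 small nuclear RNP, stood out. It was at 75.7, 50.9 and 73.5 CPM in WT, 286, 224, 179 and 262 CPM in ΔMT/ΔMT and 718, 879 and 555 CPM in SOM/SOM. The paired-end control held 67.2, 90.2, 70.2 and 82.3 CPM, the RNAi mutant 887 and 787 CPM and the double mutant 747, 936, 769 and 826 CPM. No mutant overlapped its control, and ΔMT/ΔMT lay between WT and SOM/SOM. The changes were 1.83 ± 0.21, 3.43 ± 0.23, 3.44 ± 0.15 and 3.40 ± 0.14 (adjusted p = 0.000232, 2.555e-06, 7.769e-09 and 2.139e-09, edgeR), each kept under all 16, 15, 17 and 19 alternatives. SOM/SOM exceeded ΔMT/ΔMT by 1.60 ± 0.20 (adjusted p = 0.000868).

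Slbp, the stem-loop binding protein, did not pass in any comparison. It was at 565 to 659 CPM in WT, 555 to 728 in ΔMT/ΔMT and 440 to 663 in SOM/SOM, with fitted changes of 0.13 ± 0.14 and -0.07 ± 0.15 (adjusted p = 0.594 and 0.769), and at 651 to 1493 CPM in the control with changes of -0.35 ± 0.31 and -0.44 ± 0.25 in the RNAi and double mutants (adjusted p = 0.564 and 0.248). Hinfp, a zinc finger activator of H4 promoters, was at 23.2 to 25.3 CPM in WT, 50.5 to 54.3 in ΔMT/ΔMT and 57.8 to 65.7 in SOM/SOM. It rose by 1.14 ± 0.08 and 1.39 ± 0.09 (adjusted p = 2.453e-05 and 1.677e-06) and by 0.78 ± 0.20 in the double mutant (adjusted p = 0.0140), and was at 0.67 ± 0.24 in the RNAi mutant (adjusted p = 0.0999). Srrt, encoding ARS2, a cap-complex protein of histone 3′ processing, rose by 0.67 ± 0.15 in SOM/SOM and 0.69 ± 0.18 in the double mutant (adjusted p = 0.00676 and 0.0135). Lsm1, of the cytoplasmic decay complex, rose by 0.62 ± 0.11 in ΔMT/ΔMT and 0.68 ± 0.12 in SOM/SOM (adjusted p = 0.00403 and 0.00200). Ncbp2, the small cap-binding subunit, fell in ΔMT/ΔMT, SOM/SOM and the double mutant (log2 -0.42 ± 0.08, -0.58 ± 0.09 and -0.59 ± 0.18, adjusted p = 0.005003, 0.000542 and 0.0302), and Cstf2t, a testis form of a cleavage factor, fell in the RNAi and double mutants (-1.38 ± 0.27 and -0.90 ± 0.21, adjusted p = 0.00404 and 0.00652).

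**Figure D5:**
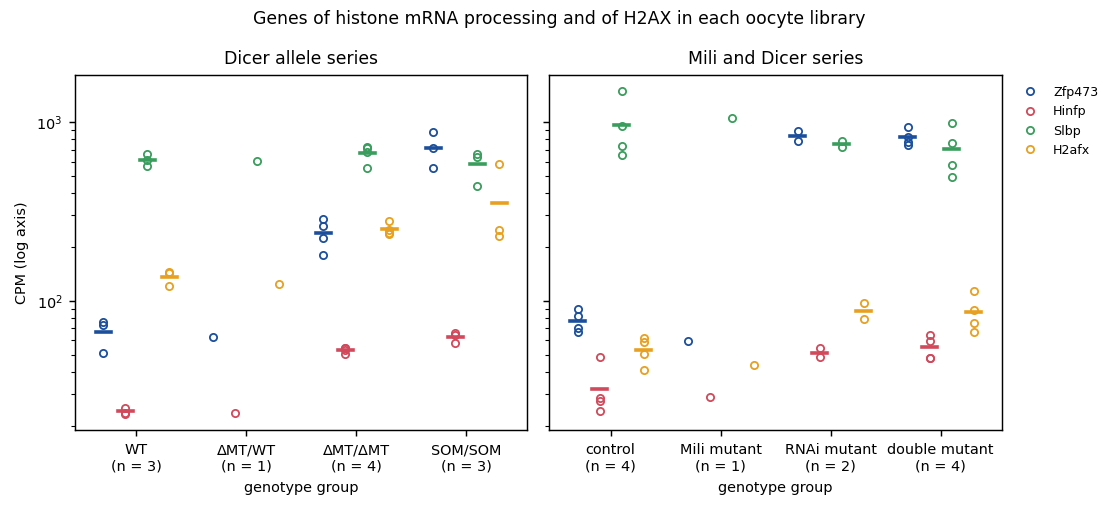
CPM (log axis) of Zfp473, Hinfp, Slbp and H2afx in each library of the single-end (left) and paired-end (right) run; circles are libraries and bars are group means. Zfp473 is at 50.9 to 75.7 CPM in WT and 555 to 879 CPM in SOM/SOM, and the Slbp groups overlap.

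Of 12 replication-independent histone genes, whose mRNAs are made outside S phase, 1, 1, 0, 1, 2 and 0 were called higher and 1, 2, 0, 1, 1 and 0 lower, in the same order of comparisons and against the same shares of all genes, with medians between -0.07 and 0.13. H2afx, the histone phosphorylated at DNA breaks, whose gene can also give a stem-loop mRNA, was at 143, 145 and 120 CPM in WT, 237 to 280 in ΔMT/ΔMT and 230, 249 and 579 in SOM/SOM. It rose by 0.88 ± 0.27 and 1.37 ± 0.29 (adjusted p = 0.0475 and 0.00462), by 0.82 ± 0.10 in SOM/SOM without replicate 3 (adjusted p = 0.000273), and by 0.73 ± 0.21 and 0.70 ± 0.18 in the RNAi and double mutants (adjusted p = 0.0429 and 0.0126). The ΔMT/ΔMT and RNAi mutant calls were lost under 8 of 16 and 10 of 17 alternatives, including every omission of a WT or ΔMT/ΔMT replicate (adjusted p up to 0.147) and the omission of either RNAi mutant or of control replicate 2o, 2 or 3 (up to 0.324). H2afj fell in SOM/SOM, the RNAi mutant and the double mutant (-0.73 ± 0.22, -1.14 ± 0.32 and -1.41 ± 0.25, adjusted p = 0.0281, 0.0360 and 0.00120). H1foo, the oocyte linker histone, was at 1141 to 1291 CPM in WT and 1200 to 1318 in SOM/SOM and passed in no comparison.

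Of 20 histone chaperone genes, 2, 0, 0, 0, 0 and 0 were called higher, against 8.06, 14.5, 4.03, 7.07, 12.3 and 0.31% of all genes. The 2 were Asf1b and Npm1. Called lower were 4, 5, 1, 1, 4 and 0, against 7.3, 14.2, 3.32, 3.64, 8.84 and 0.00476%, and the list medians lay between -0.14 and -0.01. Ubn1 and Cabin1, subunits of the HIRA complex, fell by 0.50 and 0.44 on the log2 scale in ΔMT/ΔMT, by 0.72 and 0.36 in SOM/SOM and by 0.66 and 0.49 in the double mutant (adjusted p = 0.0116, 0.00169, 0.00127, 0.00396, 0.00359 and 0.0295). Hira itself was called lower in the double mutant alone, and Anp32e in ΔMT/ΔMT, SOM/SOM and the double mutant. Among S phase genes, Top2a, the topoisomerase of replicating and dividing cells, was called lower in SOM/SOM (-0.61 ± 0.11, adjusted p = 0.00143) and in the double mutant (-0.41 ± 0.14, adjusted p = 0.0460). A list of other RNAs taken as lacking a poly(A) tail was counted per gene, without separating transcript forms. Of its 7 tested genes, 2, 2, 0, 0, 0 and 0 were called higher, against 8.06, 14.5, 4.03, 7.07, 12.3 and 0.31% of all genes. In each comparison 0 were called lower, against 7.3, 14.2, 3.32, 3.64, 8.84 and 0.00476%. The medians were 0.50, 0.42, 0.13, -1.14, -0.13 and 1.19. Neat1, the RNA of paraspeckles, was called higher in ΔMT/ΔMT (2.48 ± 0.67, adjusted p = 0.0310), a call lost without WT replicate 1 or 2 or ΔMT/ΔMT replicate 2 or 3 (adjusted p up to 0.112). Terc, the telomerase RNA, was called higher in SOM/SOM (1.84 ± 0.51, adjusted p = 0.0197), at 1.16 without replicate 3, and missed the threshold without WT replicate 2. Malat1 rose by 0.90 ± 0.18 in ΔMT/ΔMT and 1.03 ± 0.19 in SOM/SOM (adjusted p = 0.00739 and 0.00254), and was at -0.34 ± 0.28 and 0.61 ± 0.22 in the RNAi and double mutants (adjusted p = 0.524 and 0.0699).

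Markers of the oocyte and of other cells were followed by their summed CPM. The 10 oocyte markers summed to 11630 to 14710 CPM in the libraries of both runs, and Mos was their one called gene, lower in the 4 comparisons with a control. The 10 granulosa and cumulus markers summed to 38.7 to 46.6 CPM in WT, 38.3 to 82.6 in ΔMT/ΔMT, 36.8 to 72.2 in SOM/SOM, 46.0 to 67.4 in the control, 43.4 and 48.3 in the RNAi mutant and 46.7 to 72.6 in the double mutant, with Fshr called higher in SOM/SOM (1.65 ± 0.40, adjusted p = 0.0106), Ptgs2 higher in the double mutant, Cyp19a1 lower in SOM/SOM, and Has2 lower in ΔMT/ΔMT, SOM/SOM and the RNAi mutant. The 7 B cell markers summed to 115 to 128 CPM in WT, 118 to 135 in ΔMT/ΔMT and 72.2 to 97.7 in SOM/SOM, where Ms4a1 was called lower (-0.64 ± 0.12, adjusted p = 0.00250), and to 90.5 to 141 CPM in the control and both mutants. Nearly all of this was Ighm and Ms4a1, with Igkc, a defining marker, at 0 in each library and Cd79a and Cd79b at or below 0.334 CPM. The part of these markers in the histone results was not tested. The 5 erythrocyte markers summed to 0.423 to 2.67 CPM.

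The lone ΔMT/WT library had lower levels than WT in most members. It was below the range of the 3 WT libraries in 61 of 69, within it in 6 and above it in 2, with a summed member CPM of 252 against 326 to 377. The lone Mili-DAH/DAH, Dicer-SOM/WT library was within the range of the 4 controls in 52 members, above it in 5 and below it in 12, with a sum of 154 CPM against 120 to 231. Neither genotype has a replicate, so these positions carry no test. The share of all genes outside the same ranges was not computed, and many members share reads, so these counts cannot be weighed.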

How the data were processed

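The authors aligned reads with STAR 2.5.3a to mm10 and counted them over GENCODE M15 exons with featureCounts, without strand, keeping multimapping reads and dividing them by their number of places and genes. The deposited table therefore holds estimated counts, which were rounded to whole numbers here. Members, lists and tests were chosen with earlier results of these data known. Each run was fitted apart with edgeR 4.0.16 (R 4.3.3): filterByExpr defaults (count 10, total 15) over replicated groups, TMM, quasi-likelihood test, Benjamini-Hochberg over all genes tested, called at adjusted p < 0.05. The lone ΔMT/WT library was left out of the fit and the lone Mili-DAH/DAH, Dicer-SOM/WT library kept in it. Fold changes are fitted values with SE. DESeq2 1.42.0 and other settings are reported in the closing section. The fit was tested on simulated data. Named members were the 3 highest of each class in WT and in the control, the called ones (up to 8 each way) and Hist1h1t, Hist1h2aa and Hist1h2ba; Hist2h2be and the genes overlapping Hist1h1e and Hist2h2bb were added after values were seen. Of the list genes, up to 6 called per list and comparison were eligible, with Slbp. The 3-count floors cover counting error only. The deposited table of retrotransposon groups was not used here. A withheld item is not reported here.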

Additional observations from a re-analysis of the deposited data

Results flagged for a closer look

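Groups of 4 libraries were screened for a library whose gap to the next took up over 0.829 of the range, which chance gives in about 1 of 20 groups. Of 105 group screens over the named members, Slbp and the class sums, 12 stood out, 7 of them for control replicate 2. In that library Hist1h2aa was at 36.6 CPM (others 13.2 to 15.3), Hist1h2ba at 12.2 (1.75 to 2.93), Hist1h4c at 15.3 (2.21 to 3.97), Hist1h2bk at 5.13 (2.27 to 2.66) and Hist1h4f at 0.361 (0.0667 to 0.116). Its summed H2A CPM was 50.8 (20.8 to 25.9) and its summed H4 CPM 30.2 (10.9 to 14.1). Double mutant replicate 2 stood out for Hist1h2ba at 21.4 CPM (6.15 to 8.58) and for the H2A sum at 70.5 (39.7 to 42.3), and double mutant replicate 1o for Hist1h4f at 0.270 (0.158 to 0.172). ΔMT/ΔMT replicate 3 stood out for Hist1h1a at 75.2 CPM (49.6 to 51.1) and for the H1 sum at 107 (72.3 to 76.2).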

How the results depend on the processing

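Counts of members called higher or lower moved under several alternatives, and the median member change in SOM/SOM against WT was 0.38 with the Gm42418 level as a covariate and 0.24 with only libraries under 10000 CPM of Gm42418. With only the 2 groups compared in the fit, the count was 22 in place of 3 for ΔMT/ΔMT against WT and 7 in place of 25 for SOM/SOM against WT. With the Gm42418 level as a covariate it was 4 for SOM/SOM against WT and 0 in place of 4 for SOM/SOM against ΔMT/ΔMT. In the paired-end run that covariate gave 8 for the RNAi mutant and 11 for the double mutant, in place of 9 and 8. Libraries over 1000 CPM of Gm42418, a limit set after seeing the data, gave 13 and 10. With only libraries under 10000 CPM of Gm42418, chosen after seeing the data and leaving SOM/SOM replicate 2 alone in its group, assumed to vary like the others, the counts of the 3 single-end comparisons were 22, 9 and 2. DESeq2 called 35 members between SOM/SOM and WT and 8 between SOM/SOM and ΔMT/ΔMT. With age group as a term the RNAi mutant had 5 in place of 9, and with animals under 30 weeks only both paired-end mutants had 3. Leaving out 1 library gave 2 to 3 members for ΔMT/ΔMT against WT, 7 to 36 for SOM/SOM against WT, 1 to 7 for SOM/SOM against ΔMT/ΔMT, 1 to 13 for the RNAi mutant and 7 to 13 for the double mutant against the control. The double mutant against the RNAi mutant stayed at 0 under each alternative run. The cause of these shifts was not tested.

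In the single-end run replicate numbers gave no sign of pairing the libraries, which groups of 3 or 4 libraries cannot exclude. Deviations correlated between -0.03 and 0.05 for same-numbered libraries and between -0.08 and 0.10 for others. In the paired-end run the ranges were -0.07 to 0.18 and -0.18 to 0.11. There 2 of 6 same-numbered pairs and 2 of 26 others were over 0.1, so pairing by number cannot be settled. With a replicate block the count was 1 for SOM/SOM against ΔMT/ΔMT and 2 for the RNAi mutant against the control. Slbp, called nowhere, changed sign in 9 alternatives. For SOM/SOM against WT it was 0.12 with the Gm42418 covariate, 0.067 in the libraries under 10000 CPM of Gm42418, and between -0.18 and 0.091 with 1 library left out, the highest without SOM/SOM replicate 3. For the RNAi mutant it was 0.11 with that covariate and 0.12 in libraries over 1000 CPM of Gm42418, also chosen after seeing the data. For the double against the RNAi mutant it was 0.078 with the replicate block, 0.10 with the age term, 0.068 in animals under 30 weeks, and between -0.29 and 0.048 with 1 library left out, the highest without double mutant replicate 1o. At the shallowest library, SOM/SOM replicate 3, a count of 3 is 0.464 CPM, so members under 1 CPM rest on few reads there.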
